A study of Mus musculus with 12 samples.

Results

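Recruited monocyte genes are described here in mouse liver. They are 10 genes that bone marrow-derived classical monocytes express, chosen by symbol and matched to the Ensembl identifiers of 40551 genes in the deposited count files: *Ly6c2*, *Itgam*, *Lyz2*, *Plac8*, *Chil3*, *F13a1*, *Vcan*, *Aif1*, *Ms4a6c*, and *Spi1*. The rule names symbols and uses no measured value, although the list was drawn up with earlier results of these data known. All 10 passed the filter on low counts that left 15070 genes for testing. The measurements are total RNA-seq read counts of 12 livers in 4 genotypes with 3 libraries each. The WT livers carry no knockout. The Mcl1 KO livers lack *Mcl1*, an antiapoptotic gene of the *Bcl2* family, in hepatocytes, because Cre driven by the albumin promoter removes the floxed gene there (*Mcl1*Δhep in the study's naming), so the deletion does not target blood cells. The label Sting1 KO names only a knockout of *Sting1*, the adaptor that signals from cytosolic DNA sensing. The study describes a *Sting1*−/− line and its cross with the *Mcl1* line. The livers labelled Sting1 KO and Mcl1 Sting1 DKO are taken to come from these. Age was 2 months for the WT and Mcl1 KO transcriptomes. No age is attached to each library in the labels, animals of both sexes were used, and the labels give no separate animal or batch for a library, so p-values measure the spread between these libraries.

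Classical monocytes arise in the bone marrow, carry Ly6C and CD11b on their surface, leave the marrow through the chemokine receptor CCR2, and enter injured tissue after binding to activated endothelium. In the liver they add to, or replace, the Kupffer cells, the resident macrophages that line the sinusoids. Neutrophils share part of this set, such as *Itgam*, *Lyz2*, and *Spi1*, and Kupffer cells share *Lyz2*, *Aif1*, and *Spi1*, so none of these genes marks a recruited monocyte alone.

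Between 28826367 and 45266387 reads were counted on genes per library. *Mcl1* fell from 98.6 ± 7.36 CPM (read counts per library size, adjusted by edgeR's TMM factors) in WT to 29.0 ± 4.58 in Mcl1 KO (mean ± SD, n = 3 each; edgeR adjusted p = 0.000517), as its label states. *Sting1* counts did not show a loss against WT: the gene had 2.11 to 2.53 CPM in WT and 1.16 to 2.70 in the libraries labelled Sting1 KO (log2 fold change −0.33, SE 0.28, edgeR adjusted p = 0.997). In Mcl1 KO it was higher than in WT, at 3.67 to 5.997 CPM (log2 fold change 0.99, SE 0.28, edgeR adjusted p = 0.029), and the libraries labelled Mcl1 Sting1 DKO, at 1.90 to 2.53 CPM, lay below Mcl1 KO without overlap (log2 fold change −1.06, SE 0.28, edgeR adjusted p = 0.120, DESeq2 adjusted p = 0.0207) and near WT. The study checked the knockout line on protein, which counts do not measure, and the position of the lesion relative to the counted exons is not given in the sources used here. Small structured RNAs took 0.172 to 0.369% of the counts in WT, 0.283% in Mcl1 KO replicate 1, and 2.37 and 1.36% in Mcl1 KO replicates 2 and 3. The share of small structured RNA was 0.506 to 0.897% in libraries labelled Sting1 KO and 0.431 to 0.532% in those labelled Mcl1 Sting1 DKO. Reads of Y-linked genes were present in WT replicates 2 and 3 and in the library labelled Mcl1 Sting1 DKO replicate 1. Skeletal muscle markers summed to 1370 CPM in Mcl1 KO replicate 3 and to at most 7.68 CPM elsewhere.

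*Spi1* encodes PU.1, an ETS-family transcription factor needed for myeloid cells, which binds purine-rich DNA with a GGAA core. The 250 bases before the annotated start of each gene's canonical transcript were therefore read from GRCm39 and searched for GAGGAA, a core that PU.1 binds, and for its reverse complement TTCCTC. At least 1 copy was found in 5 of the 10 promoters and in 22.9% of all 21757 protein-coding promoters of the same length. The 5 windows are shown 5′ to 3′ on the strand of the gene, with each copy in capitals. They lie at chr2:90926191-90926440 on the plus strand for *Spi1*, chr7:127661558-127661807 on the plus strand for *Itgam*, chr15:74983828-74984077 on the minus strand for *Ly6c2*, chr10:117118227-117118476 on the minus strand for *Lyz2*, and chr5:100720112-100720361 on the minus strand for *Plac8*.
Spi1: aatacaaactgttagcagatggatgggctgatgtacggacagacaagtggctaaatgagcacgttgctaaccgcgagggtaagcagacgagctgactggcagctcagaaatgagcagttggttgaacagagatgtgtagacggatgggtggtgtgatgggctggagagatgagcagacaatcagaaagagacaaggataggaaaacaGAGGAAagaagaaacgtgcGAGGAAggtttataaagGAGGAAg
Itgam: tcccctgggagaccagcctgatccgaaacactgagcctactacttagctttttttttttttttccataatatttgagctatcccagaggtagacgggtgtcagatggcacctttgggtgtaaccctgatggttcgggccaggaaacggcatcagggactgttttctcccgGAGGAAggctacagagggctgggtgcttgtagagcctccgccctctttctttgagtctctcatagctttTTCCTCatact
Ly6c2: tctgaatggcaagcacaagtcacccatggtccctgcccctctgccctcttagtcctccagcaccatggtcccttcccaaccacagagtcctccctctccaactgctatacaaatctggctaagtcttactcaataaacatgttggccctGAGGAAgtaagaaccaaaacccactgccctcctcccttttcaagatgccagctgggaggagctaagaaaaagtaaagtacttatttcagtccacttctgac
Lyz2: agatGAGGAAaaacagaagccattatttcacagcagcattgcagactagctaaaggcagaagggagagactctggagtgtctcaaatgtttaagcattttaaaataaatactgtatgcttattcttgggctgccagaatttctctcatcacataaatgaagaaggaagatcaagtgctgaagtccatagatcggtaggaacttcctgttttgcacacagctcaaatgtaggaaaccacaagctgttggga
Plac8: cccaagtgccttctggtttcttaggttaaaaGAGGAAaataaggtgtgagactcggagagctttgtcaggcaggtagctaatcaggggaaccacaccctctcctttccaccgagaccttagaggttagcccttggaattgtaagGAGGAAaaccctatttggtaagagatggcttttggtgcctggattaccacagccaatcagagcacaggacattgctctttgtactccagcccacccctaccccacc
In the *Spi1* window, 3 copies on the gene's own strand begin 43, 24, and 7 bases before the start. *Itgam* has 1 copy on each strand, which begin 80 and 11 bases before the start, *Plac8* has copies at 219 and 106 bases, *Ly6c2* at 101 bases, and *Lyz2* at 246 bases. A match is a string of letters and not a binding site. The other 5 windows, those of *Chil3*, *F13a1*, *Vcan*, *Aif1*, and *Ms4a6c*, do not hold these letters.

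All 10 genes were higher in Mcl1 KO than in WT livers, and for all 10 the 3 Mcl1 KO libraries lay above the 3 WT libraries. By edgeR's quasi-likelihood test with Benjamini-Hochberg adjustment over all tested genes, 10 of 10 had an adjusted p under 0.05 and a higher level, against 11.4% of all tested genes, and non-overlap in this direction held for 16.2% of tested genes. The median log2 fold change of the 10 was 1.62, against −0.005 over all tested genes. The 10 differed in size, from 1.91-fold for *Aif1* to 11.5-fold for *Chil3*. In these bulk livers, more cells of a type and more RNA per cell cannot be told apart. The per-library values follow by the place where each product acts, with replicates 1, 2, and 3 in that order within a genotype, and the plot of CPM by genotype shows them together.

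*Ly6c2* (ENSMUSG00000022584, GRCm39 chr15:74980003-74988467, minus strand) encodes the Ly6C antigen by which classical monocytes are sorted. *Ly6c2* had 0.607, 0.415 and 1.09 CPM in the WT libraries, 2.61, 3.09 and 1.93 in the Mcl1 KO libraries, 0.611, 0.637 and 1.30 in those labelled Sting1 KO, and 1.34, 0.902 and 1.09 in those labelled Mcl1 Sting1 DKO. The Mcl1 KO libraries stood above every other library, with no overlap, and the other 3 genotypes overlapped each other. Mcl1 KO exceeded WT 3.45-fold (log2 fold change 1.79, SE 0.37, edgeR adjusted p = 0.00849). The closest copy is *Ly6c1*, which endothelium also expresses. Of the 75-base stretches of the *Ly6c2* transcripts, 23.9% also occur in *Ly6c1* transcripts, and how reads that match both were counted is not given in the sources used here. *Ly6c1* had 0.227 ± 0.176 CPM in WT and 1.25 ± 0.424 in Mcl1 KO (mean ± SD, n = 3 each; log2 fold change 2.23, SE 0.43, edgeR adjusted p = 0.00602), so both copies differed in the same direction.

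*Itgam* (ENSMUSG00000030786, GRCm39 chr7:127661808-127717753, plus strand) encodes CD11b, the α subunit of the integrin Mac-1. *Itgam* had 1.98, 2.08 and 1.95 CPM in the WT libraries, 4.90, 7.34 and 2.91 in the Mcl1 KO libraries, 2.47, 3.29 and 2.003 in those labelled Sting1 KO, and 2.97, 3.70 and 2.13 in those labelled Mcl1 Sting1 DKO. WT libraries lay between 1.95 and 2.08 CPM, whereas Mcl1 KO replicate 3 was far closer to WT than replicates 1 and 2. The rise over WT in Mcl1 KO was 2.48-fold (log2 fold change 1.31, SE 0.32, edgeR adjusted p = 0.0155). The read-through gene *Gm49368* lies over *Itgam* on the same strand and shares 67.4% of its exonic bases. *Gm49368* was counted 1127 times over the 12 libraries and had 1.62 ± 0.0808 CPM in WT and 4.10 ± 1.71 in Mcl1 KO, and how shared reads were assigned is not given in the sources used here, so the level of *Itgam* is uncertain. The partner subunit *Itgb2* (CD18) rose 2.04-fold (edgeR adjusted p = 0.00937).

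**Figure D1:**
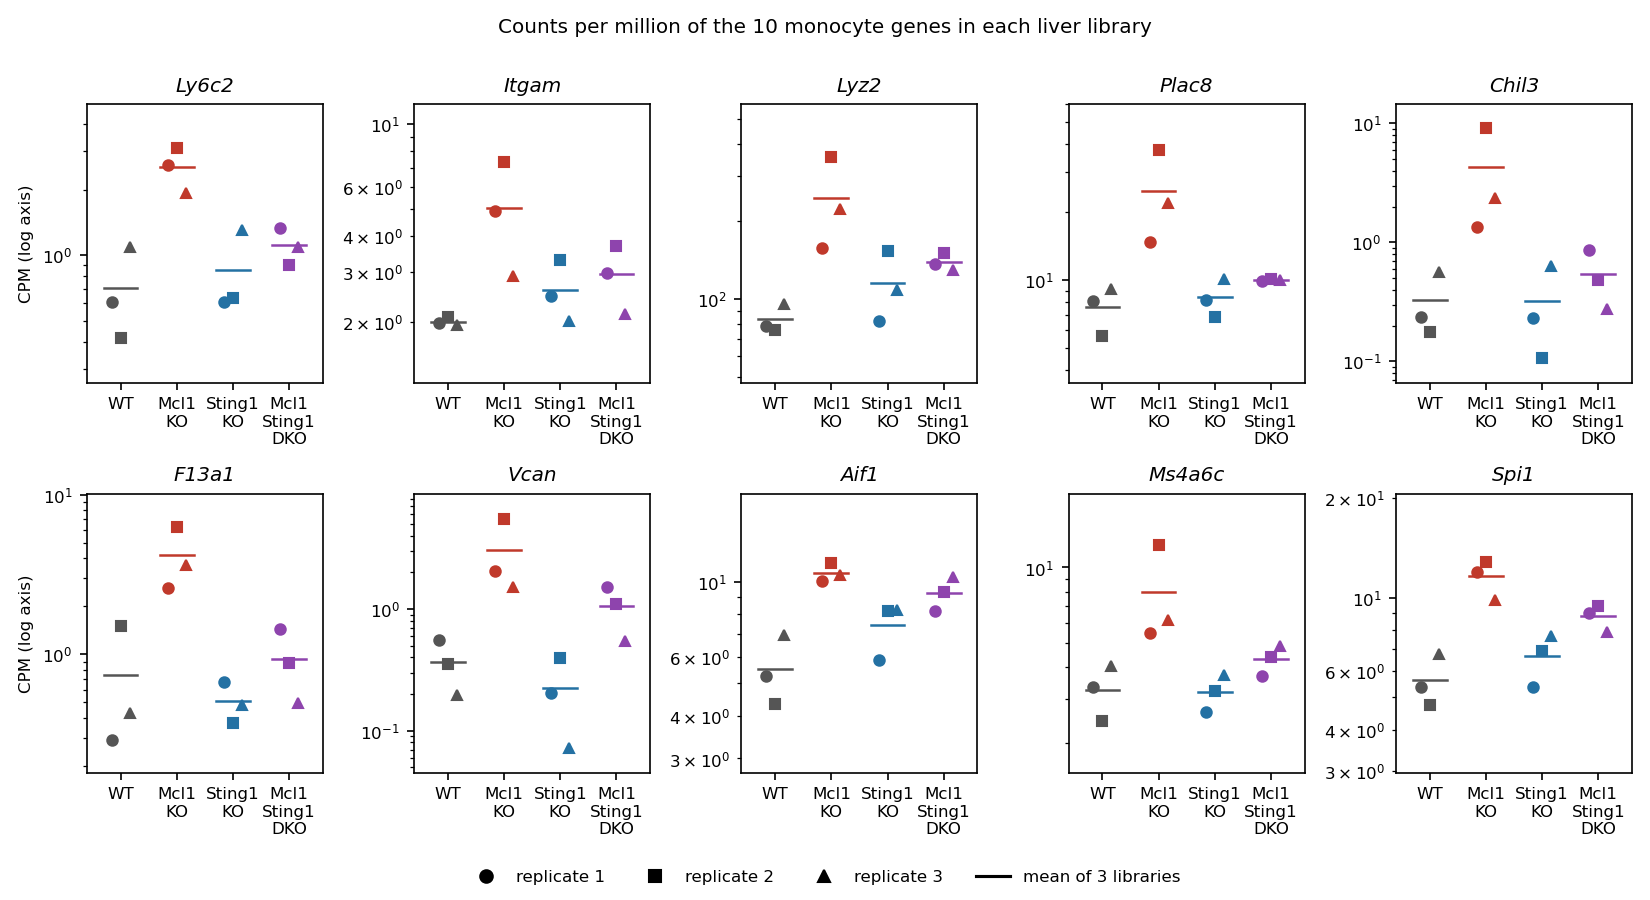
CPM of the 10 monocyte genes in each of the 12 liver libraries (vertical log axes, with a range of their own per gene), by genotype; points are libraries and bars are means of 3. In every panel the 3 Mcl1 KO points lie above the 3 WT points, and Mcl1 KO replicate 2 (square) is the highest point in 10 of 10 panels.

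Of the secreted products, *Lyz2* (ENSMUSG00000069516, GRCm39 chr10:117111557-117118346, minus strand), the bacteriolytic enzyme lysozyme M, was the most abundant. *Lyz2* had 78.5, 76.0 and 96.1 CPM in the WT libraries, 158, 356 and 224 in the Mcl1 KO libraries, 82.3, 153 and 108 in those labelled Sting1 KO, and 137, 151 and 129 in those labelled Mcl1 Sting1 DKO. Every Mcl1 KO library was above every other library of the series, although replicate 1, at 158 CPM, was only just above the library labelled Sting1 KO replicate 2, at 153 CPM. Mcl1 KO exceeded WT 2.94-fold (log2 fold change 1.56, SE 0.28, edgeR adjusted p = 0.00459). The copy *Lyz1*, known from Paneth cells, had 0.448 ± 0.490 CPM in WT and 0.781 ± 0.513 in Mcl1 KO (n = 3 each), shares 2.09% of the 75-base stretches, and did not pass the threshold (log2 fold change 0.70, SE 0.65, edgeR adjusted p = 0.459).

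*Chil3* (ENSMUSG00000040809, GRCm39 chr3:106054870-106074880, minus strand) encodes Ym1, a chitinase-like lectin without enzyme activity. *Chil3* had 0.237, 0.178 and 0.561 CPM in the WT libraries, 1.34, 9.09 and 2.37 in the Mcl1 KO libraries, 0.233, 0.106 and 0.627 in those labelled Sting1 KO, and 0.869, 0.487 and 0.274 in those labelled Mcl1 Sting1 DKO. Replicate 2 of Mcl1 KO carried 6.76 times the CPM of replicate 1, the widest spread among the 10 genes within that genotype. *Chil3* had the largest difference, 11.5-fold (log2 fold change 3.52, SE 0.76, edgeR adjusted p = 0.0100). Its copy *Chil4* shares 6.23% of the 75-base stretches and had too few counts to be tested.

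*F13a1* (ENSMUSG00000039109, GRCm39 chr13:37051152-37234277, minus strand) encodes the catalytic A subunit of coagulation factor XIII, which cross-links fibrin. *F13a1* had 0.290, 1.51 and 0.429 CPM in the WT libraries, 2.59, 6.30 and 3.61 in the Mcl1 KO libraries, 0.669, 0.371 and 0.483 in those labelled Sting1 KO, and 1.44, 0.877 and 0.493 in those labelled Mcl1 Sting1 DKO. WT replicate 2 was above the other WT libraries and above the 3 libraries labelled Mcl1 Sting1 DKO, and all Mcl1 KO libraries were above it. The rise over WT was 5.28-fold (log2 fold change 2.40, SE 0.56, edgeR adjusted p = 0.0130). The plasma B subunit, *F13b*, which hepatocytes make, did not follow (log2 fold change −0.35, edgeR adjusted p = 0.111).

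*Vcan* (ENSMUSG00000021614, GRCm39 chr13:89803431-89890814, minus strand) encodes versican, a large proteoglycan of the matrix that monocytes and fibroblasts produce. *Vcan* had 0.554, 0.356 and 0.198 CPM in the WT libraries, 2.07, 5.51 and 1.52 in the Mcl1 KO libraries, 0.204, 0.398 and 0.0724 in those labelled Sting1 KO, and 1.503, 1.10 and 0.547 in those labelled Mcl1 Sting1 DKO. The lowest Mcl1 KO library, at 1.52 CPM, was barely above the highest one labelled Mcl1 Sting1 DKO, at 1.503 CPM. The difference from WT was the second largest of the 10, 7.16-fold (log2 fold change 2.84, SE 0.59, edgeR adjusted p = 0.00821), and it was the least abundant of the 10 per length of transcript. TPM (counts per summed exon length, scaled to a common total) averaged 0.0814 in WT and 0.611 in Mcl1 KO for *Vcan*, against 90.1 and 247 for *Lyz2*.

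Among the intracellular and membrane products, *Plac8* (ENSMUSG00000029322, GRCm39 chr5:100701591-100720111, minus strand) encodes a small cysteine-rich protein abundant in monocytes. *Plac8* had 8.13, 5.64 and 9.15 CPM in the WT libraries, 14.8, 37.6 and 22.0 in the Mcl1 KO libraries, 8.21, 6.90 and 10.1 in those labelled Sting1 KO, and 9.89, 10.2 and 9.99 in those labelled Mcl1 Sting1 DKO. The 3 libraries labelled Mcl1 Sting1 DKO lay between 9.89 and 10.2 CPM, all below the lowest Mcl1 KO library. Mcl1 KO exceeded WT 3.23-fold (log2 fold change 1.69, SE 0.30, edgeR adjusted p = 0.00426).

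*Ms4a6c* (ENSMUSG00000079419, GRCm39 chr19:11446718-11462204, plus strand) encodes a membrane-spanning protein of the MS4A family. *Ms4a6c* had 3.32, 2.43 and 4.03 CPM in the WT libraries, 5.50, 12.3 and 6.17 in the Mcl1 KO libraries, 2.65, 3.21 and 3.72 in those labelled Sting1 KO, and 3.71, 4.41 and 4.84 in those labelled Mcl1 Sting1 DKO. Mcl1 KO replicates 1 and 3 were close together and replicate 2 stood above both, and WT and the libraries labelled Sting1 KO overlapped throughout. The level in Mcl1 KO was 2.42 times that in WT (log2 fold change 1.28, SE 0.30, edgeR adjusted p = 0.0134). The antisense gene *BE692007* covers 76.6% of its exonic bases and had 25 counts over the 12 libraries. Whether strand was used in counting is not given in the sources used here.

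*Aif1* (ENSMUSG00000024397, GRCm39 chr17:35387384-35395053, minus strand) encodes IBA1, a calcium- and actin-binding protein of monocytes and tissue macrophages. *Aif1* had 5.28, 4.36 and 6.97 CPM in the WT libraries, 10.03, 11.4 and 10.4 in the Mcl1 KO libraries, 5.85, 8.17 and 8.25 in those labelled Sting1 KO, and 8.19, 9.31 and 10.3 in those labelled Mcl1 Sting1 DKO. It showed the narrowest spread within Mcl1 KO, a coefficient of variation of 6.36%, and the smallest difference from WT, 1.91-fold (log2 fold change 0.93, SE 0.20, edgeR adjusted p = 0.00874). Its values in the libraries labelled Mcl1 Sting1 DKO reached into the Mcl1 KO range.

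*Spi1* (ENSMUSG00000002111, GRCm39 chr2:90912562-90946101, plus strand), the transcription factor PU.1, was next to *Aif1* in size and spread. *Spi1* had 5.38, 4.75 and 6.77 CPM in the WT libraries, 11.96, 12.9 and 9.87 in the Mcl1 KO libraries, 5.38, 6.93 and 7.65 in those labelled Sting1 KO, and 9.02, 9.43 and 7.91 in those labelled Mcl1 Sting1 DKO. The 3 Mcl1 KO libraries stood above the other 9, and WT and the libraries labelled Sting1 KO overlapped. Mcl1 KO exceeded WT 2.04-fold (log2 fold change 1.03, SE 0.19, edgeR adjusted p = 0.00459). The ETS relative *Spic*, known from red pulp macrophages, also rose (log2 fold change 1.72, edgeR adjusted p = 0.00608), and *Spib* did not pass the threshold (log2 fold change 0.54, edgeR adjusted p = 0.135).

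In TPM, the order of the group means in WT was *Lyz2* (90.1), *Spi1* (6.69), *Plac8* (6.24), *Aif1* (4.69), *Ms4a6c* (2.39), *Itgam* (1.40), *Ly6c2* (0.824), *Chil3* (0.663), *F13a1* (0.387), and *Vcan* (0.0814). In Mcl1 KO, *Chil3* moved from the eighth to the fifth place with 7.81 TPM, and *Plac8* (18.7) stood above *Spi1* (13.3). The first and the last places were held by *Lyz2* and *Vcan* in both genotypes.

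The height of the rise depended on the library. Replicate 2 of Mcl1 KO had the highest CPM of all 12 libraries for 10 of 10 genes, which was so for 20.6% of tested genes, and by TPM it was highest for 7 and replicate 1 for 3. Without replicate 2 the median log2 fold change was 1.23, and 7 of 10 stayed past the edgeR threshold (those lost were *Itgam*, *F13a1*, and *Ms4a6c*), while the share of all tested genes called higher went from 11.4% to 5.95%. Replicate 1, whose share of small structured RNA lay within the WT range, was above every WT library for 10 of 10 genes, against 32.9% of tested genes, and stood from 1.69 times the WT mean for *Ms4a6c* to 5.60 times for *Vcan*. When replicates 2 and 3 were left out, so that the lone Mcl1 KO library was assumed to vary like the other genotypes, the median was 1.18 and edgeR called *Itgam* and *Spi1* and, of all tested genes, 4.12% higher. With the share of small structured RNA as a covariate the median was 0.98 and *Plac8* alone was called (log2 fold change 0.86, edgeR adjusted p = 0.0491), with 2.83% of all tested genes called higher, while Y-linked expression as a covariate left 7 called, a median of 1.61, and 6.22% of all tested genes. Without WT replicate 2 or without WT replicate 3, 8 of 10 were called (*Itgam* and *Ms4a6c*, or *Itgam* and *F13a1*, were lost), beside 5.16 or 6.83% of all tested genes, and without the 3 libraries with Y-linked counts, which left WT with 1 library, 0 of 10 and 1 of all tested genes were called higher, with the median of the 10 at 1.61. The part of RNA quality, of sex, and of muscle tissue in these differences was not tested.

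**Figure D2:**
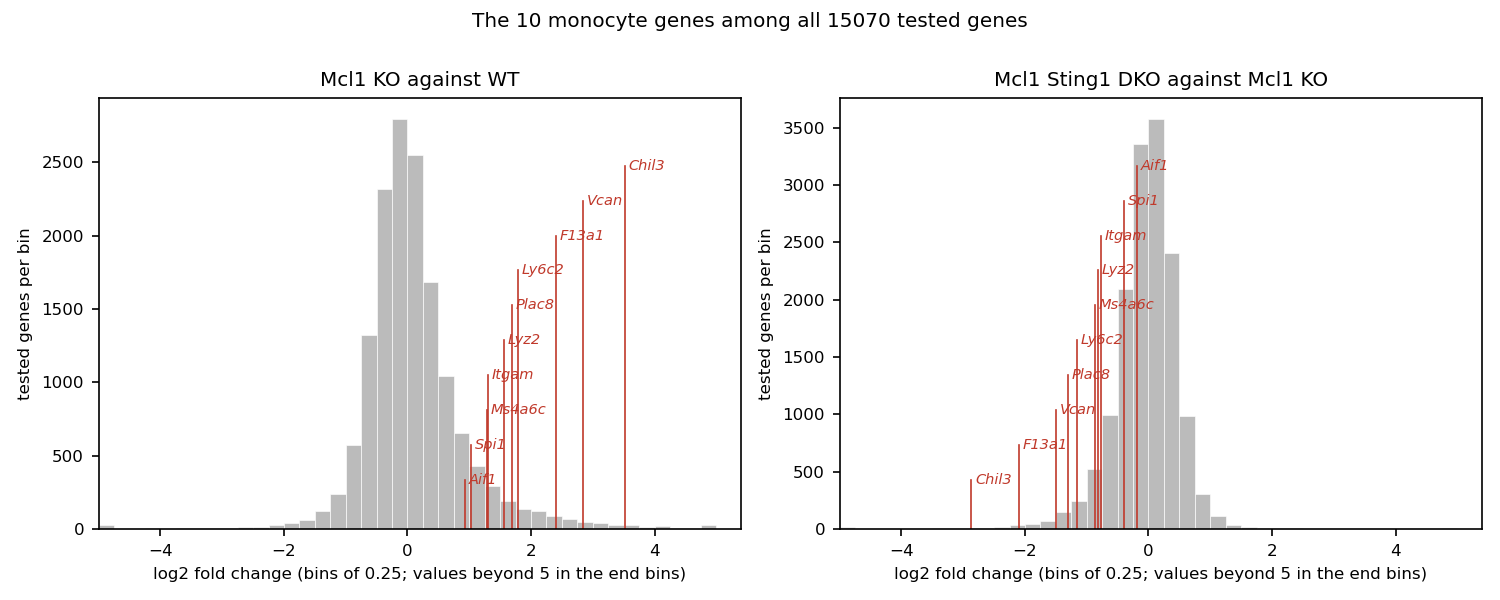
Histograms of the log2 fold changes of all 15070 tested genes (grey bars, genes per bin of 0.25) for Mcl1 KO against WT (left) and for libraries labelled Mcl1 Sting1 DKO against Mcl1 KO (right), with a red line at the value of each of the 10 genes; line heights only separate the names. The 10 lie from 0.93 to 3.52 on the left, and from −2.87 to −0.19 on the right.

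The mean CPM of each of the 10 genes in the libraries labelled Mcl1 Sting1 DKO lay between the means of Mcl1 KO and WT. All 10 fitted differences from Mcl1 KO were negative, with a median log2 fold change of −1.02 against −0.002 over all tested genes. For 8 of 10 genes, all but *Itgam* and *Aif1*, the 3 libraries lay below the 3 Mcl1 KO libraries, which was so for 9.28% of tested genes. None of the 10 passed the edgeR threshold, as was true of every tested gene (0% called). An unadjusted p under 0.05 and a lower level was found for 8 of 10 by edgeR, all but *Aif1* and *Spi1*, against 10.6% of tested genes. DESeq2 called 3 of 10 lower, *Plac8*, *Chil3*, and *F13a1*, against 2.36% of the genes it adjusted. This comparison shares the Mcl1 KO libraries with the one against WT, so a high Mcl1 KO library moves both. With the share of small structured RNA as a covariate, the median of the 10 was −0.59. Without the libraries over 1% small structured RNA, which left a lone Mcl1 KO library, it was −0.64. Reads of Y-linked genes were present in the library labelled Mcl1 Sting1 DKO replicate 1, and skeletal muscle markers summed to 1370 CPM in Mcl1 KO replicate 3. The part of RNA quality, of sex, and of muscle tissue in this comparison was not tested.

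The fall was not of 1 size. *Chil3* had the largest, to a fitted 0.137 of the Mcl1 KO level (log2 fold change −2.87, SE 0.73, edgeR adjusted p = 0.120, DESeq2 adjusted p = 0.00514). *F13a1* was at 0.233 (log2 −2.10, SE 0.55, edgeR adjusted p = 0.120, DESeq2 adjusted p = 0.00931), and *Plac8* at 0.405 (log2 −1.30, SE 0.29, edgeR adjusted p = 0.116, DESeq2 adjusted p = 0.0043). A lower log2 value was found for 0.219% of all tested genes below *Chil3*, 0.584% below *F13a1*, and 2.04% below *Plac8*. *Vcan* (log2 −1.49, SE 0.55, edgeR adjusted p = 0.168) and *Ly6c2* (−1.16, SE 0.36, edgeR adjusted p = 0.136) followed. *Ms4a6c* (−0.87, SE 0.29), *Lyz2* (−0.82, SE 0.28), and *Itgam* (−0.77, SE 0.31) were closer together than their standard errors. At the other end, *Spi1* (−0.39, SE 0.18, edgeR adjusted p = 0.242) and *Aif1* (−0.19, SE 0.19, edgeR adjusted p = 0.589) were at 0.761 and 0.874 of the Mcl1 KO level. Kupffer cells express both, and also *Lyz2*, which was at −0.82. The part of Kupffer cells in the order of these falls was not tested.

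Against WT, the means of the libraries labelled Mcl1 Sting1 DKO were from 1.26 times as high for *F13a1* to 2.84 times for *Vcan*. All 3 of these libraries were above all WT libraries for 5 of 10 genes, *Itgam*, *Lyz2*, *Plac8*, *Aif1*, and *Spi1*, against 11.5% of tested genes. Leaving out Mcl1 KO replicate 1 made edgeR call 5 of the 10 lower (*Lyz2*, *Plac8*, *Chil3*, *F13a1*, and *Ms4a6c*) along with 9.36% of all tested genes, and leaving out replicate 2 reduced the median to −0.60 with 0 of the 10 called.

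**Figure D3:**
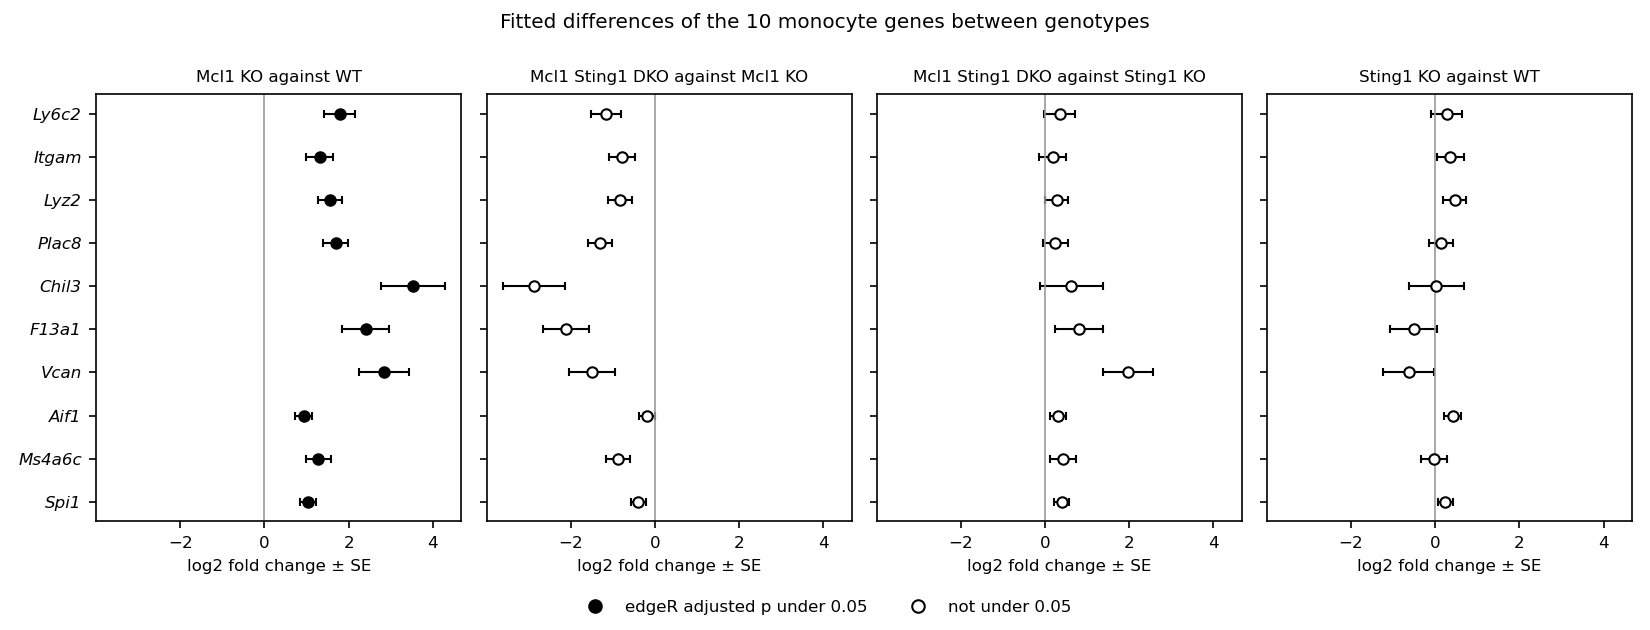
Fitted log2 fold changes of the 10 monocyte genes in 4 comparisons (horizontal axis, shared), with bars of 1 standard error; filled points have an edgeR adjusted p under 0.05. The filled points are the 10 of Mcl1 KO against WT, and all 10 points of the comparison with Mcl1 KO lie below 0.

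Between libraries labelled Mcl1 Sting1 DKO and Sting1 KO, the hepatocyte deletion of *Mcl1* is compared within a background labelled as *Sting1*-deficient. All 10 fitted values were positive, from 0.18 for *Itgam* to 1.98 for *Vcan*, with a median of 0.37 against −0.009 over all tested genes. EdgeR called 0 of 10, where it called 0.803% of tested genes higher, and 1 of 10, *Vcan*, had an unadjusted p under 0.05 and a higher level, against 7.45% of tested genes. *Vcan* rose from 0.225 ± 0.164 to 1.05 ± 0.480 CPM by DESeq2 (adjusted p = 0.0241; the DESeq2 share of genes called higher was 2.58%) and not by edgeR (log2 1.98, SE 0.59, adjusted p = 0.175). *Vcan* and *Spi1* were the 2 genes without overlap between the genotypes, a pattern of 11.5% of tested genes. These counts were close to the shares over all tested genes.

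The libraries labelled Sting1 KO and the WT libraries overlapped for 10 of 10 genes, where 12.5% of tested genes did not overlap in either direction. The log2 fold changes ran from −0.63 for *Vcan* to 0.46 for *Lyz2*, with a median of 0.19. None was called by edgeR (0% of tested genes were called), 0 of 10 had an unadjusted p under 0.05 (5.69% of tested genes did), and DESeq2 called 0 of 10 (0.326% of genes). The smallest unadjusted p belonged to *Aif1* (log2 0.42, SE 0.20, edgeR adjusted p = 0.881).

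The difference between the effects of the label Sting1 KO with and without *Mcl1* in hepatocytes was tested as an interaction. All 10 estimates were negative, from −2.89 (SE 1.10) for *Chil3* to −0.62 (SE 0.27) for *Aif1*. Their median was −1.20, against −0.009 over all tested genes. The same Mcl1 KO libraries enter this test. The median was −0.84 without Mcl1 KO replicate 2 and −0.50 with the share of small structured RNA as a covariate. EdgeR called 0 of 10 and 0% of all genes. At an unadjusted p under 0.05, 7 of 10 were lower, all but *F13a1*, *Vcan*, and *Ms4a6c*, against 7.39% of tested genes. The lowest adjusted value was that of *Plac8* (log2 −1.44, SE 0.41, edgeR adjusted p = 0.248), and DESeq2 called 0 of 10 against 1.14% of genes.

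Other genes of monocyte recruitment were compared between Mcl1 KO and WT in the same fit. Of 24 other genes of classical monocytes, 19 were called higher and 0 lower, with a median log2 fold change of 1.58, and each count of called genes in the lists that follow stands against the 11.4% of all tested genes called higher. *Ccr2*, the receptor that releases these cells from the marrow, had 3.14, 1.48 and 2.08 CPM in WT and 5.92, 14.1 and 5.79 in Mcl1 KO (log2 fold change 1.91, SE 0.36, edgeR adjusted p = 0.00560). *Tyrobp*, the adaptor DAP12 of activating receptors, rose 2.95-fold (edgeR adjusted p = 0.00167). *Csf1r*, the receptor for macrophage colony-stimulating factor, which Kupffer cells also express, had a log2 fold change of −0.07 (edgeR adjusted p = 0.831). Of 9 tested ligands and adhesion molecules, 7 were called higher, including *Vcam1* (log2 2.19, edgeR adjusted p = 0.00112) and *Icam1* (log2 0.93, edgeR adjusted p = 0.00197), which leukocytes bind on endothelium, whereas the growth factors *Csf1* (log2 0.12) and *Il34* (log2 0.69) did not pass the threshold. *Vcam1* was also the gene of this list called higher between libraries labelled Mcl1 Sting1 DKO and Sting1 KO (log2 1.42, edgeR adjusted p = 0.0308). Of 13 recruitment receptors and integrins 6 were called higher, of 8 patrolling monocyte genes 5, of 8 tested myeloid transcription factors 2, and of 10 tested paralogs of the members 5, with 0 lower in each. Some genes stand in several of these lists, so the counts are not separate from each other. The patrolling count includes *Eno3*, the muscle enolase, whose CPM in Mcl1 KO were 1.99, 2.48 and 42.6, the last in the replicate with skeletal muscle markers, and whose groups overlapped. *Irf8*, a transcription factor of monocytes and dendritic cells, was 1 of the 2 transcription factors (log2 1.15, edgeR adjusted p = 0.00121). No gene of any of these lists was called by edgeR between libraries labelled Mcl1 Sting1 DKO and Mcl1 KO. There the 24 classical monocyte genes had a median of −1.0 and ran from −2.3 to 0.42. For 14 of the 24, the libraries labelled Mcl1 Sting1 DKO lay below all Mcl1 KO libraries, against 9.28% of tested genes. Among the most abundant of the 24, *Tyrobp* was lower (log2 −0.78), whereas *Csf1r* (log2 0.42), *Adgre1* (log2 0.08), and *Cybb* (log2 0.06) were not.

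Markers of other cells were counted in the same way. Of 9 tested neutrophil markers, 6 were called higher in Mcl1 KO, with a median of 1.72, and the summed CPM of all 12 was 3.30 to 5.42 in WT, 11.3 to 25.3 in Mcl1 KO, 3.08 to 8.44 in the libraries labelled Sting1 KO, and 6.78 to 7.99 in those labelled Mcl1 Sting1 DKO. The calprotectin genes *S100a8* (log2 1.89, edgeR adjusted p = 0.0155) and *S100a9* (log2 2.40, edgeR adjusted p = 0.00923), which monocytes also express, were among the 6. The 6 Kupffer cell markers summed to 300 to 487 CPM in WT and to 532 to 599 in Mcl1 KO, with 2 called higher, *Cd5l* (log2 0.67, edgeR adjusted p = 0.0227) and *Marco* (log2 2.08, edgeR adjusted p = 0.0157), and the C-type lectin *Clec4f*, which defines Kupffer cells, was not (log2 0.43, edgeR adjusted p = 0.111). Between libraries labelled Mcl1 Sting1 DKO and Mcl1 KO, the Kupffer markers had a median of 0.11 and the neutrophil markers one of −1.11. None of the listed genes was at 0 in all libraries. Of the remaining lists, 2 of 6 dendritic cell, 3 of 6 tested T and NK cell, 1 of 3 tested platelet, and 4 of 7 stellate cell and fibroblast markers were called higher in Mcl1 KO, and 0 of 5 B cell, 0 of 6 sinusoidal endothelial, 0 of 5 cholangiocyte, 0 of 6 hepatocyte, and 0 of 5 erythroid markers, with 0 called lower in each, where 11.4% of all tested genes were called higher. Of the skeletal muscle markers the 1 that could be tested, *Mylpf*, was called higher (log2 5.48, edgeR adjusted p = 0.0306, groups overlapping), and of 4 Y-linked genes 2 were called lower. The part of neutrophils and of other cells in the values of the 10 genes was not tested.

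**Figure D4:**
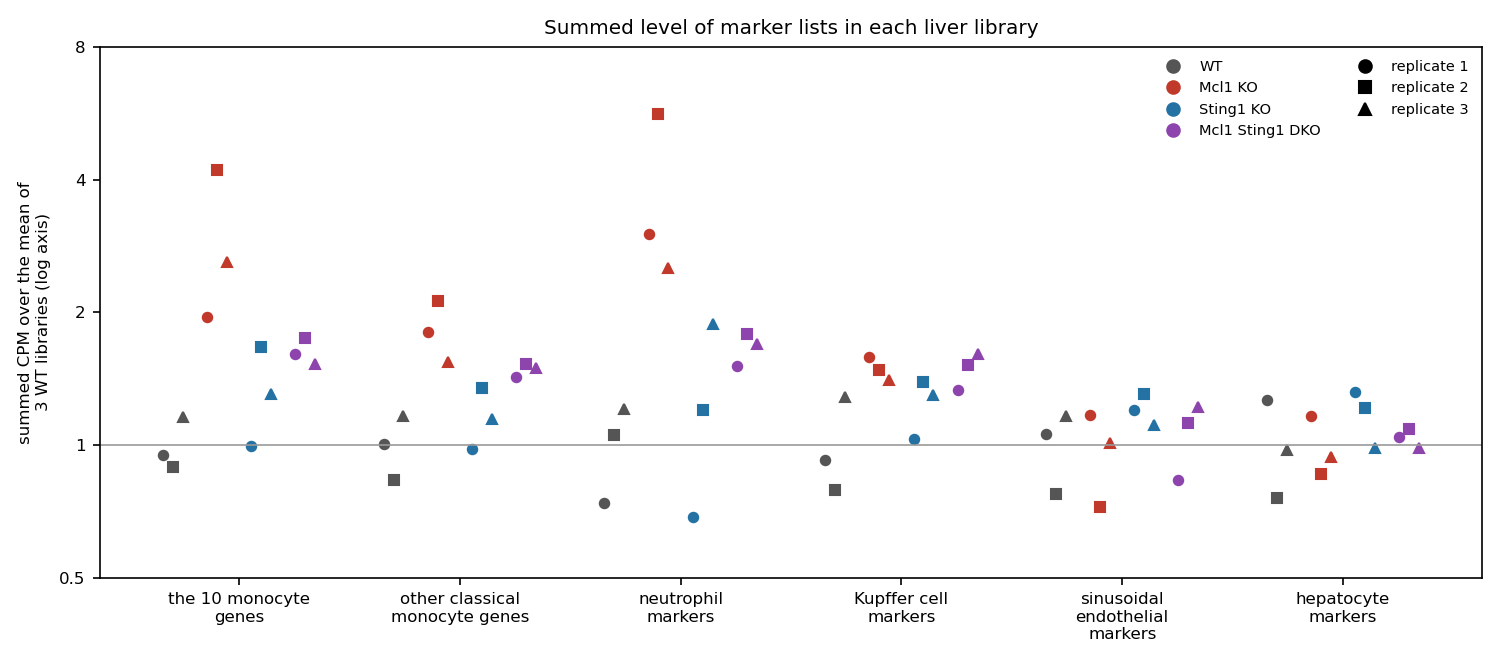
Summed CPM of 6 gene lists in each library, divided by the mean of the 3 WT libraries (vertical log axis); colours are genotypes and symbols are replicates. The 10 monocyte genes summed to 97.7 to 127 CPM in WT and to 214 to 462 in Mcl1 KO, a sum that *Lyz2* dominates, and the sinusoidal endothelial and hepatocyte lists overlap between genotypes.

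Outside the 10, the tested genes whose log2 CPM over the 12 libraries correlated most with the mean of the 10 standardized profiles were *Cd300a* (r = 0.991), an inhibitory receptor of myeloid cells, *Arl11* (r = 0.984), an ARF-like GTPase, *Clec4n* (r = 0.984), the lectin receptor dectin-2, *Lgals3* (r = 0.983), galectin-3, and the read-through gene *Gm49339* (r = 0.982). The 12 points share genotype groups and libraries, and these values are a description. *Lgals3*, also listed with the other classical monocyte genes, had 6.33, 4.95 and 8.19 CPM in WT, 27.6, 77.3 and 47.6 in Mcl1 KO, 6.61, 6.71 and 9.17 in those labelled Sting1 KO, and 17.1, 15.4 and 12.8 in those labelled Mcl1 Sting1 DKO. WT and the libraries labelled Sting1 KO overlapped at the low end, and Mcl1 KO was highest. Among the 10 themselves, r with the mean ran from 0.821 for *F13a1* to 0.948 for *Plac8* and *Ms4a6c*, a measure to which each gene itself contributes.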

How the data were processed

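Total RNA-seq read counts of 12 mouse livers were analysed. Per the labels' processing notes, the authors used STAR, featureCounts, and the build GRCm39, and deposited raw counts per Ensembl gene without normalization. Annotation, strand, and treatment of multimapping reads are not given in the sources used here, and the labels and the paper name different extraction kits. Gene names, positions, exon lengths, and promoters came from GENCODE vM39, which holds 39533 of 40551 identifiers. The counts were fitted with edgeR 4.0.16 (TMM, filterByExpr by genotype, estimateDisp, glmQLFit, prior count of 2, common dispersion 0.0699) in R 4.3.3, with 12 libraries in 4 genotypes, no covariate, Benjamini-Hochberg adjustment, and a threshold of 0.05. DESeq2 1.42.0 was an alternative. Both tests were tried on simulated data. Figures used matplotlib 3.10.9 under Python 3.11.15. Precision was set by 28826367 to 45266387 counts and 3 libraries per genotype. Between libraries of a genotype, the chi-square of the counts over its degrees of freedom was 40.9 to 290, so no library repeats the counts of another of its genotype. Libraries of different genotypes were not compared in this way, and the measure does not tell whether libraries came from separate animals. The genes named are all 10 monocyte genes, up to 4 genes of highest mean CPM in each other list, near copies, *Ccr2*, *Mcl1*, *Sting1*, and the 5 genes of highest r. *Spic*, *Spib*, *Gm49368*, and *BE692007* were added to the named genes later, with their values known. *Mylpf* was named outside that rule, as the skeletal muscle marker that could be tested. The 10 genes, lists, and tests were chosen with earlier results of these data known. Alternatives were other scaling, filters, models, covariates, a block for the replicate number, and omission of each library in turn. Same-numbered libraries of different genotypes did not deviate together (r over 0.1 in 3 of 18 pairs, from −0.541 to 0.251), so numbers were not taken as pairs.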

Additional observations from a re-analysis of the deposited data

How the results depend on the processing

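Over 23 alternatives, the median log2 fold change of the 10 genes ran from 0.98 to 1.78 for Mcl1 KO against WT, −1.18 to −0.59 for libraries labelled Mcl1 Sting1 DKO against Mcl1 KO, 0.25 to 0.53 against those labelled Sting1 KO, and −0.08 to 0.39 for those labelled Sting1 KO against WT, and over 22 from −1.37 to −0.50 for the interaction, which has no fit of the compared genotypes alone. Of the 10 called in Mcl1 KO, 1 was called with the small structured RNA share as a covariate, 2 without the libraries over 1% small structured RNA, and 0 without the libraries with Y-linked counts, which left 1 WT library and 5 called genes in all. The last 2 settings were chosen after seeing the data. Leaving out each library in turn gave 7 to 10. Against Mcl1 KO, DESeq2 called 3 and leaving out each library 0 to 5, against libraries labelled Sting1 KO DESeq2 called 1, and leave-one-out fits of the interaction called 0 to 2. With a replicate block, 10, 0, 0, 0, and 0 of the 10 were called in the 5 tests, so the block changed no call of the 10. Over all tested genes, 3223 were called for Mcl1 KO against WT without the block and 2723 with it. These counts do not show whether the replicate numbers pair the samples. Genes called over all tested ranged from 5 to 5367, 0 to 3184, 0 to 474, 0 to 49, and 0 to 1679. Directions turned only where no test was passed: in libraries labelled Sting1 KO against WT, *F13a1* was 0.44 with Y-linked expression as a covariate and 0.71 without the libraries with Y-linked counts, *Plac8* −0.14 and *Chil3* −0.62 with the small structured RNA covariate, and, leaving out 1 library, *Chil3* ran from −0.75 to 0.54, *F13a1* from −0.88 to 0.45, *Ly6c2* from −0.15 to 0.68, *Ms4a6c* from −0.20 to 0.15, and *Plac8* from −0.04 to 0.29. *Itgam* against libraries labelled Sting1 KO ran from −0.02 to 0.38. The cause of these changes was not tested. *Ly6c2*, *Chil3*, *F13a1*, and *Vcan* had the lowest mean CPM of the 10, which limits their precision.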
